A study of Mus musculus with 6 samples.

Results

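The tumour necrosis factor (TNF) superfamily is a set of ligands, mostly made as trimers on the cell surface, and of receptors that pass their signal through TRAF adaptors to NF-kB or through death domains to caspases. Macrophages are a main source of TNF, and they carry several of the receptors. The genes described here were the protein-coding genes whose symbol begins with Tnfsf or Tnfrsf, together with Tnf, Lta, Ltb, Ltbr, Fas, Fasl, Cd27 and Cd70. This gave 39 of the 43432 genes listed, made up of 16 ligands, 22 receptors and 1 read-through locus that joins the ligand genes Tnfsf12 and Tnfsf13.

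The RNA came from macrophages of the mammary glands of female FVB/N mice carrying MMTV-PyMT, a transgene that expresses the middle T antigen of polyomavirus in mammary epithelium from a promoter of the mouse mammary tumour virus. Glands were digested and live cells were sorted for CD45, MHC class II and CD14. There were 3 libraries from mice of 8 weeks and 3 from mice of 11 weeks, which the series presents as early and late tumours. Both ages carry the transgene, and mice without it are not among these libraries. The samples are numbered within each age, but the labels do not say that each number is a separate animal or whether animals were pooled, so p-values cover only how far these samples differ from each other, and that spread may be technical.

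Depth ranged between 38784434 and 75004876 reads per library, with 17385 to 19722 genes detected by 1 read or more. Much of this depth was mitochondrial ribosomal RNA, at 35.2%, 44.4% and 51.8% in 8-week replicates 1 to 3. In 11-week replicates 1 to 3 its share was 46.4%, 44.2% and 48.6%. Fewer reads were therefore left for other genes than the depth shows, and the lowest and highest shares both fell at 8 weeks. Values are given as normalized counts, that is, gene counts divided by a size factor for each library. The sorted cells carried macrophage transcripts in every library. Csf1r, the receptor for macrophage colony-stimulating factor, stood at 64409.9 to 70989.5 normalized counts at 8 weeks and 54613 to 59567.7 at 11 weeks. The 10 macrophage markers summed to 714564.4 to 915026.4, of which Lyz2 alone made up 411884.8 to 623180.1. Of the 10, 3 were higher at 11 weeks without overlap (Cd14, Mrc1 and Fcgr1), beside 6.81% of all genes. Csf1r was the 1 lower without overlap, beside 5.12% of all genes. Markers of other cells were present, and some lists had sums that did not overlap between ages. The 14 mammary epithelial markers summed to 9668.9 to 13222.4 at 8 weeks and 26972.4 to 51150.7 at 11 weeks, and 6 of them were higher at 11 weeks without overlap, as were 6.81% of all genes tested. The 9 fibroblast markers summed to 818.3 to 1420 at 8 weeks and 1942.5 to 3466.6 at 11 weeks. The 10 neutrophil markers summed to 1863.7 to 4506.7, then 5933 to 6670.4, with 4 higher without overlap, and the 6 pericyte markers to 825.7 to 1496.3, then 1799.9 to 2933.5, with 1. The part of these cells in the superfamily values below was not tested. In such sorted bulk RNA, fewer cells of a type and less RNA per cell cannot be told apart.

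The superfamily was led by 1 ligand and 1 receptor. Levels between genes are compared here as normalized counts per kilobase of exon, averaged over the 6 libraries. Tnf, the founding ligand and a main inflammatory product of macrophages, had the highest level at 3617 per kilobase, above 98.4% of the 16037 protein-coding genes with a read. Tnfrsf1b, the TNF receptor 2 found mainly on blood cells, followed at 3270. The order of these genes is not fixed by the libraries, since the ratio of Tnf to Tnfrsf1b per kilobase ran from 0.782 to 1.4. Tnfrsf21, which encodes death receptor 6, came next at 1653 and was below Tnfrsf1b in all 6 libraries. Then came Tnfrsf11a (RANK) at 816, Tnfsf12 (TWEAK) at 783 and Tnfrsf1a (TNF receptor 1) at 770. The ranges of these last genes overlapped, and Tnfrsf11a stood at 0.47 to 1.79 times Tnfrsf1a. In all, 23 members averaged at least 100 normalized counts and 7 at least 1000, while Cd70, the ligand of Cd27, had 0 reads in all 6 libraries. A count of 0 still allows up to 3 reads, equal to 2.56 to 4.16 normalized counts in a library.

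**Figure D1:**
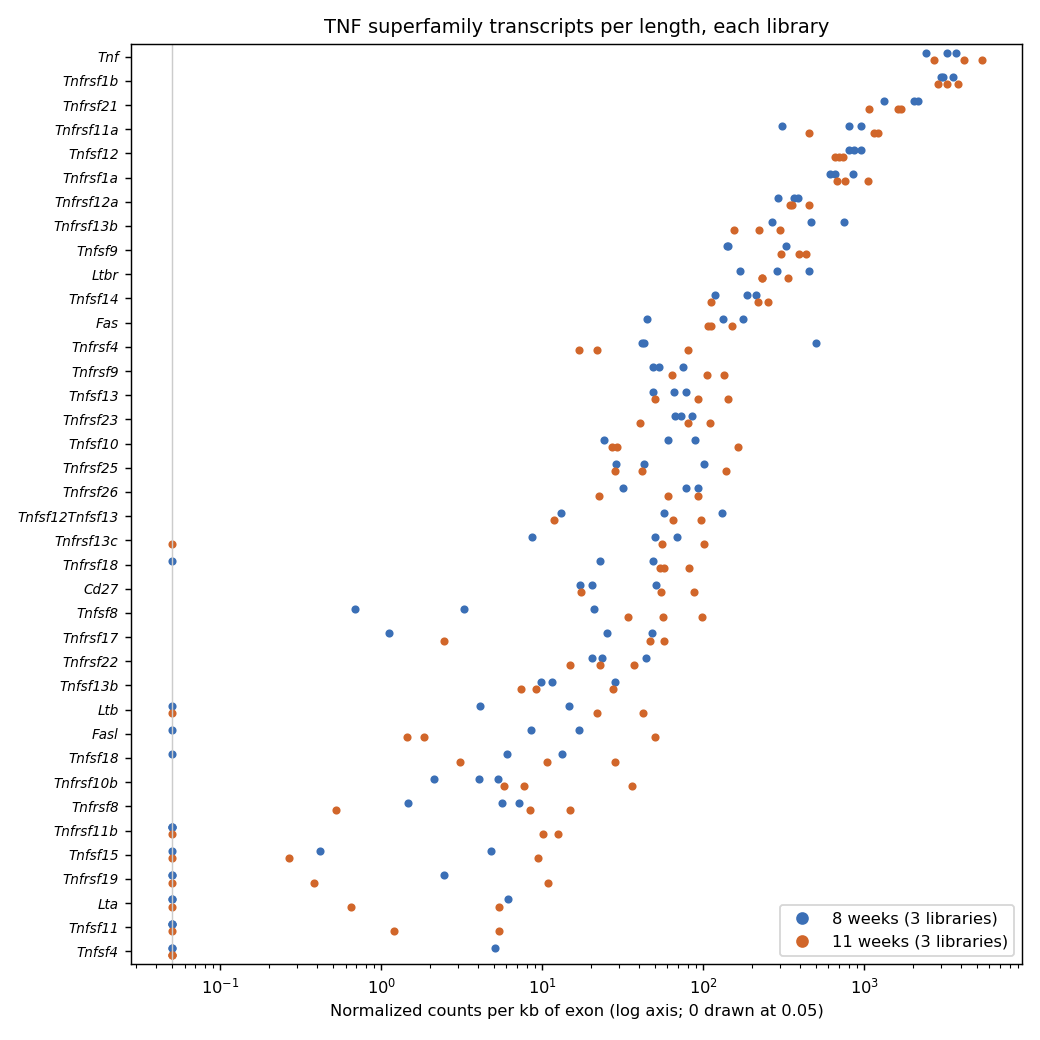
Normalized counts per kilobase of exon (log axis, 0 drawn at 0.05) for the 38 superfamily genes with a read, ordered by their mean, with each dot 1 library (blue 8 weeks, orange 11 weeks, 3 each). Tnf and Tnfrsf1b lie at the top with every library at 2407 or more, and the dots spread more widely in the lower part, where several genes have libraries at 0.

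Tnf sits in the major histocompatibility region of chromosome 17 between the lymphotoxin genes Ltb and Lta, within 35194439 to 35205351 of GRCm38. The gaps are 3.1 kilobases on the Ltb side and 1.2 on the Lta side. The levels of these close neighbours were far apart: per kilobase, Tnf averaged 3617, Ltb 13.9 and Lta 2.02. Their promoters are shown because the genes share a locus and not a level; they were picked after the levels were seen. The windows are the 250 bases before RefSeq's transcription start on GRCm38.p6, written 5′ to 3′ on the gene's strand; the last bases of the Ltb window lie inside the gene's listed span and are not printed. Capitals mark matches to the motifs searched.
Tnf, chr17:35202008-35202257, minus strand: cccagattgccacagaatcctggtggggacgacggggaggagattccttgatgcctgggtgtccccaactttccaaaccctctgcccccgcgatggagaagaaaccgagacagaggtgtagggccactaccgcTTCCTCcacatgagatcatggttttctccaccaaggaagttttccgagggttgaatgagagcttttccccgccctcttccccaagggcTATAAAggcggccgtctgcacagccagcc
Lta, chr17:35205352-35205601, minus strand: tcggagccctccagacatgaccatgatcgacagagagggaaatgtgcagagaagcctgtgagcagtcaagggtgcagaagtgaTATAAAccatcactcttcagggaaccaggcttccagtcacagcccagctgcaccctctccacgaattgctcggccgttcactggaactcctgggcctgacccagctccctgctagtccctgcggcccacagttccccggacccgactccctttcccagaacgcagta
Ltb, chr17:35194257-35194438, plus strand: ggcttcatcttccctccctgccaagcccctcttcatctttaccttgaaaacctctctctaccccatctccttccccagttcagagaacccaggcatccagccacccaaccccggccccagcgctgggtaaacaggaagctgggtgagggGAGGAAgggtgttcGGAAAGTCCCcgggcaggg
The search covered both strands for the TATA box (TATAAA), the core of sites for PU.1, a transcription factor of myeloid cells (GAGGAA), an AP-1 site (TGANTCA) and the NF-kB consensus by name. In the Tnf promoter, TATAAA lay 29 to 24 bases before the start and the PU.1 core, on the other strand as TTCCTC, 117 to 112 bases before it. In the Lta promoter TATAAA lay 167 to 162 bases before the start. The Ltb promoter held GAGGAA at 101 to 96 bases and an NF-kB match, GGAAAGTCCC, at 87 to 78 bases. None of these matches overlapped another. Such matches are common: of 32851 promoters of this length, 12.4% held TATAAA, 23.3% GAGGAA, 6.75% TGANTCA and 3.9% the NF-kB consensus. Of 30 members with a promoter sequence, 6, 12, 6 and 3 held them in that order. A match describes the letters and is not a measured binding site.

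No superfamily gene passed the test between ages. The comparison asked which transcripts differ between the macrophages of early and late tumours, and it was made with limma on log2(normalized count + 1) over the 21675 genes that averaged at least 1 normalized count at either age. At an adjusted p of 0.05 it called 11 genes in all (0.0507%) and 0 of the 38 members tested. DESeq2 called 418 of the 15874 genes it gave an adjusted p (2.63%), again with no member among them, and edgeR called 14 genes and no member. At an unadjusted p under 0.05, 3 of the 38 members passed in limma (Tnfsf8, Tnfrsf13b and Tnfrsf11b) beside 8.03% of all genes. There were 4 members in edgeR beside 8.98% of all genes, and 5 in DESeq2 beside 10%. The ages did not overlap for 4 members, Tnfsf8, Tnfrsf18 and Tnfrsf10b being higher at 11 weeks and Tnfsf12 lower, beside 11.9% of all genes. The limma and overlap shares are near the background, and none of these counts is read as particular to the family. Of the 38 members 25 had a positive log2 fold change, with a median of 0.21, where 52.8% of all genes were positive and the median was 0.05. Among the 23 members averaging at least 100 normalized counts, 12 were positive and the median was 0.04.

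**Figure D2:**
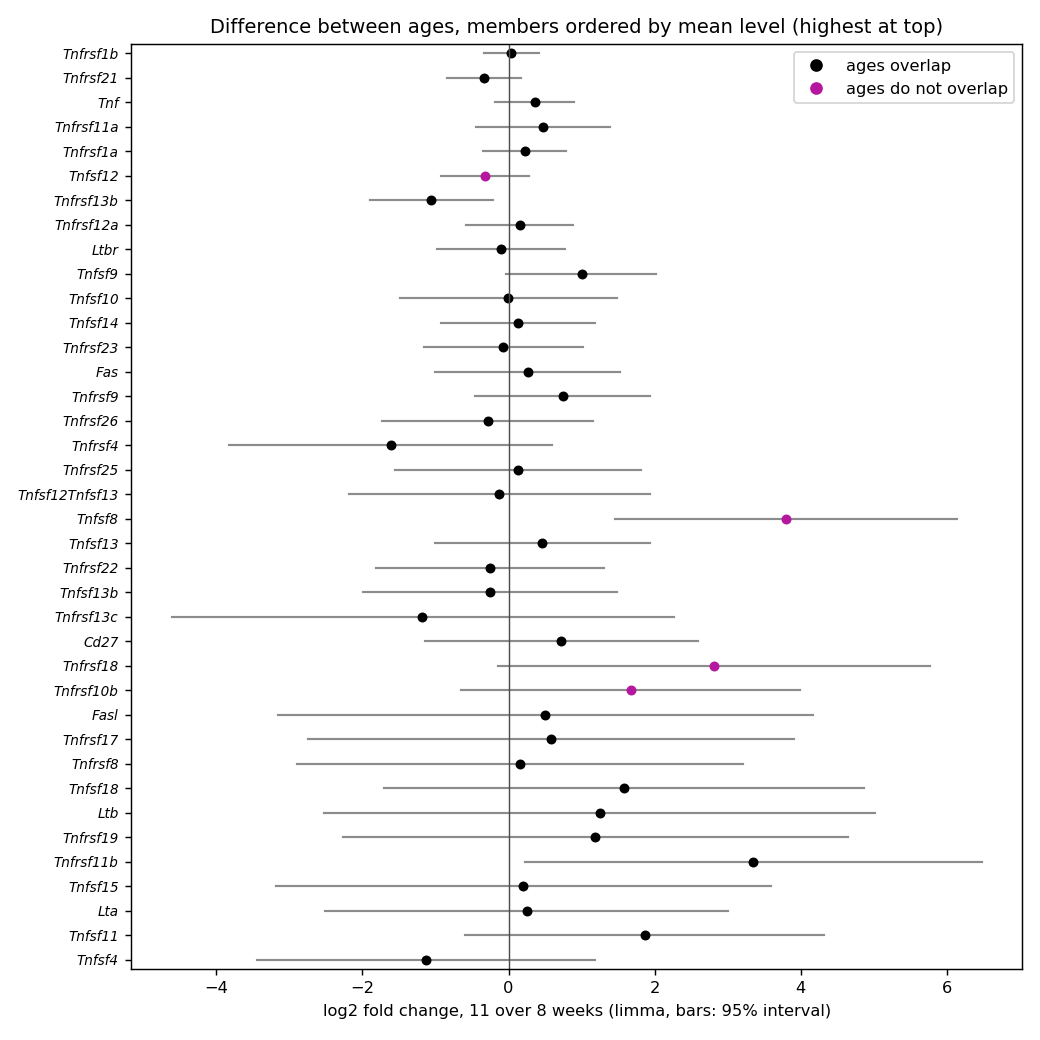
Log2 fold change of 11 over 8 weeks from limma (horizontal axis) for the 38 members tested, ordered by mean level with the highest at the top; bars are 95% intervals and magenta dots mark genes whose ages do not overlap. Intervals widen toward the bottom, and only those of Tnfsf8, Tnfrsf13b and Tnfrsf11b leave out 0.

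TNF and its receptors were abundant at both ages, and none passed the test. The 8-week libraries had 5338.2, 6135.8 and 3945.1 normalized counts of Tnf, and the 11-week libraries 8836.2, 6849.9 and 4467.4. The highest library was of 11 weeks and the lowest of 8 weeks, but the ages overlapped, and the log2 fold change was 0.36 ± 0.25 (SE; 95% interval -0.19 to 0.90; adjusted p = 0.785). The upper end of that interval is less than a doubling. Tnfrsf1b had the narrowest interval of the family: 11478, 13586.4 and 11758.4 at 8 weeks against 14690.6, 12439.8 and 10960.5 at 11 weeks. Its coefficient of variation was 9.33% and 14.8% within the ages, and its log2 fold change was 0.04 ± 0.18 (interval -0.33 to 0.41; adjusted p = 0.958). Tnfrsf1a, the death domain receptor found on most cells, stood at 1599.6, 1710.9 and 2200.2, then 2720.7, 1761.1 and 1975.8. The ages overlapped here too, with a log2 fold change of 0.22 ± 0.27 (adjusted p = 0.839). Per kilobase, Tnfrsf1b exceeded Tnfrsf1a in all 6 libraries, by 4.63 ± 0.906 times at 8 weeks and 4.07 ± 0.625 times at 11 weeks (SD, n = 3 each).

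The lymphotoxin arm was mostly its receptor. Ltbr, the lymphotoxin beta receptor of myeloid and stromal cells, had 673.2, 397.6 and 1070.2 normalized counts at 8 weeks, then 788, 541.3 and 544.7 at 11 weeks, overlapping, with a log2 fold change of -0.10 ± 0.41 (adjusted p = 0.957). Tnfsf14 (LIGHT), a ligand of that receptor, stood at 347.7, 393.4 and 217.8, then 467.1, 205.6 and 407, and also overlapped (0.13 ± 0.50; adjusted p = 0.953). The lymphotoxin ligands, products mainly of lymphocytes, were near the bottom of the family. Ltb ranged from 0 to 64.5 normalized counts over the libraries, with 1 library of each age at 0. Lta ranged from 0 to 8.5, with 2 libraries at 0 at 8 weeks and 1 at 11 weeks.

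**Figure D3:**
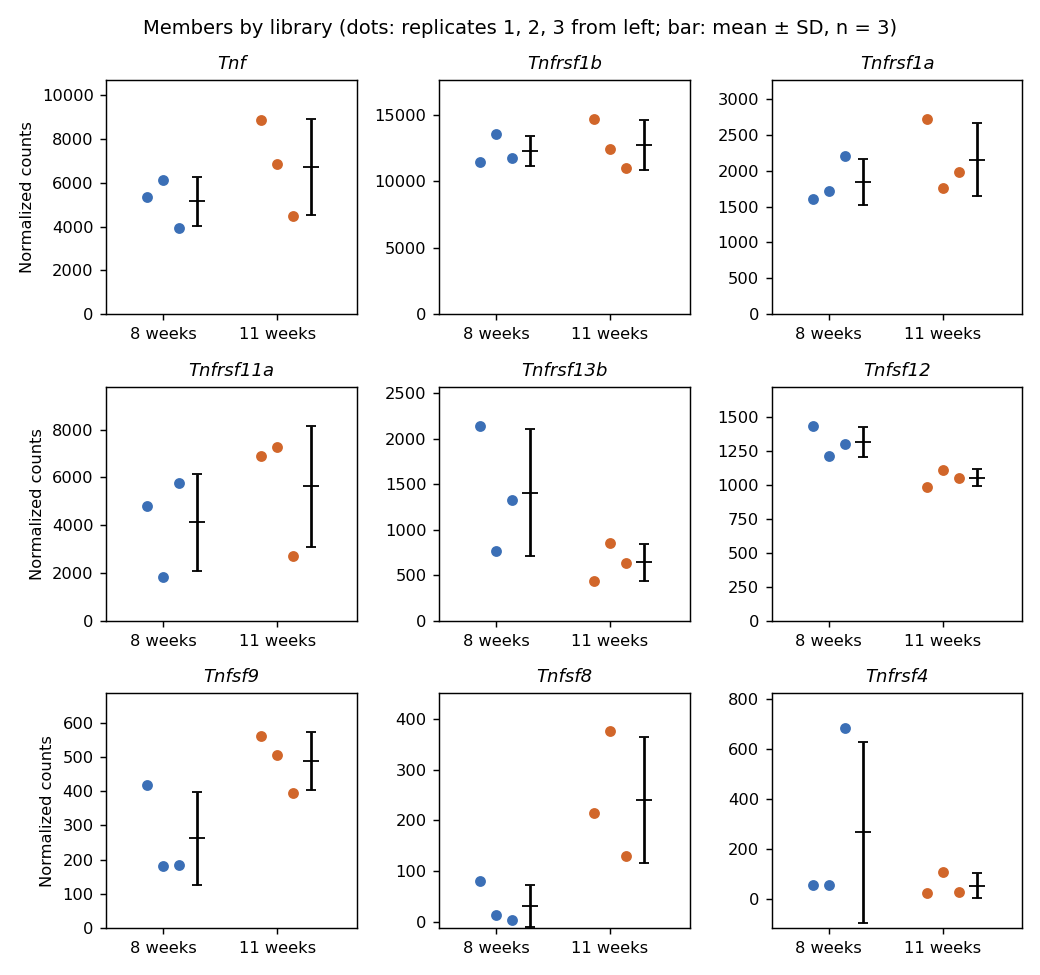
Normalized counts (vertical axis, from 0 except where the SD bar reaches below it) of 9 members in each library, with replicates 1 to 3 of each age from left to right and the mean ± SD beside them (n = 3). Tnfsf8 and Tnfsf12 are the panels whose ages do not overlap, and the 8-week mean of Tnfrsf4 rests on 1 library at 684.1.

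The death receptors were led by Tnfrsf21. Tnfrsf21 had 5433.6, 8884.4 and 8420.5 normalized counts at 8 weeks, compared with 6911.7, 6709.8 and 4381.3 at 11 weeks. The ages overlapped and the log2 fold change was -0.33 ± 0.24 (interval -0.84 to 0.17; adjusted p = 0.785). Fas, which triggers apoptosis when bound by Fas ligand, stood at 363.8, 271.5 and 92.2, then 229.9, 312.5 and 220.2, and all 11-week values lay within the 8-week range (0.26 ± 0.60; adjusted p = 0.917). Its ligand Fasl, a product of cytotoxic lymphocytes, ran only from 0 to 96.8. Tnfrsf25 (death receptor 3) had 65.1, 231.4 and 98.2 against 94.7, 64.5 and 318.1, again overlapping (0.13 ± 0.79; adjusted p = 0.972). Its ligand Tnfsf15 was at most 31.7 in any library.

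Tnfsf10 (TRAIL), a ligand that kills through death receptors, varied more between libraries than between ages. It stood at 127.5, 468.3 and 319.4 normalized counts in the younger group against 861.6, 143.1 and 154.1 in the older, so that 1 library of 11 weeks was the highest and the others were near the lowest. The log2 fold change was -0.0011 ± 0.70 (interval -1.48 to 1.48; adjusted p = 1.0), and without that highest library it was -0.84. Of the TRAIL receptors, Tnfrsf10b, which carries the death domain, was low: 11.6, 22.2 and 29 at 8 weeks and 197.7, 42.3 and 31.7 at 11 weeks. Each 11-week value exceeded every 8-week value, at the closest 31.7 against 29, and the log2 fold change of 1.67 ± 1.09 did not pass (adjusted p = 0.756). The mouse decoy receptor genes Tnfrsf22 and Tnfrsf23 lie beside the related Tnfrsf26 on chromosome 7. Because the 3 are similar copies, reads may be split between them and their separate values are uncertain. Tnfrsf23 had 265.7, 335.3 and 289.5, then 437.7, 318.6 and 159.5. Tnfrsf26 had 101.6, 300.6 and 251.1, then 300.7, 72.6 and 194, and Tnfrsf22 185.5, 99.7 and 86.3, then 62.5, 95.8 and 155.9. The ages overlapped in all 3, with log2 fold changes of -0.07 ± 0.51, -0.28 ± 0.68 and -0.26 ± 0.73 (adjusted p = 0.977, 0.923 and 0.936).

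Among the genes of B cell survival, Tnfrsf13b had the highest level and the smallest p of the members lower at 11 weeks. It encodes TACI, a receptor for the cytokines BAFF and APRIL that is known from B cells and also from macrophages (ENSMUSG00000010142, chromosome 11, 61126755 to 61149372, plus strand). It had 2142.6, 763.3 and 1323 normalized counts at 8 weeks, then 444.1, 853.8 and 633.5 at 11 weeks. The means were 1410 ± 694 and 644 ± 205 (SD, n = 3), but 8-week replicate 2 lay below 11-week replicate 2, so the ages overlapped. The log2 fold change was -1.06 ± 0.40 (SE; interval -1.90 to -0.21), with an adjusted p of 0.492 in limma, 0.433 in edgeR and 0.145 in DESeq2. It ran from -1.44 to -0.69 over all alternatives, being nearest 0 without 8-week replicate 1. The authors' deposited table gives it a log2 fold change of -0.89 with an adjusted p of 0.177, where DESeq2 on the recovered reads gave -1.13. As described below for Tnfsf8, the deposited size is not compared with those here.

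The 7 B cell markers summed to 342.4, 127.5 and 66.6 at 8 weeks and 258.4, 19.1 and 643.5 at 11 weeks, and 4 were positive and 3 negative between ages. Of the chains of the B cell receptor complex, Cd79b had 241.6, 95.6 and 20.5, then 14.7, 3 and 105.1, and Cd79a 1.8, 0 and 0, then 3.7, 0 and 39.9. Cd79b, like Tnfrsf13b, was highest in 8-week replicate 1 and lower on average at 11 weeks. The 4 positive markers, Cd79a, Ms4a1, Cr2 and Fcer2a, were higher on average at 11 weeks. The highest B cell sum, 643.5, was in 11-week replicate 3, where Tnfrsf13b was 633.5. The part of B cells in the Tnfrsf13b values was not tested. The other receptors of this axis were lower. Tnfrsf13c (the BAFF receptor) ran from 0 to 206.7 normalized counts and Tnfrsf17 (BCMA, of plasma cells) from 0.9 to 46.2. Of the ligands, Tnfsf13b (BAFF) had 78.5, 195.3 and 67.5, then 62.5, 189.5 and 50.8, with replicate 2 high at both ages (-0.26 ± 0.82; adjusted p = 0.943). Tnfsf13 (APRIL) had 128.4, 108.1 and 80.3, then 233.5, 82.7 and 152.3, overlapping (0.46 ± 0.69; adjusted p = 0.863).

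Among ligands that stimulate T cells, Tnfsf8 had the smallest p of the whole family. It encodes the ligand of CD30 (ENSMUSG00000028362, chromosome 4, 63831308 to 63861347, minus strand of GRCm38). It had 79.4, 12.5 and 2.6 normalized counts at 8 weeks, compared with 215.2, 376 and 129.6 at 11 weeks, with means of 31.5 ± 41.8 and 240 ± 125 (SD, n = 3). All 11-week libraries lay above all 8-week libraries. The log2 fold change was 3.80 ± 1.10 (SE; interval 1.46 to 6.14), and the adjusted p was 0.310 in limma, 0.465 in edgeR and 0.0956 in DESeq2. Over all alternatives the log2 fold change lay between 2.74 and 4.98. The adjusted p lay between 0.0956 and 0.552, so the threshold was not reached. Because the ages did not overlap, leaving out a library could not change the sign, and the constant direction adds no support. The authors' deposited table gives 1.078 with an adjusted p of 0.168, where DESeq2 on the recovered reads gave 2.93. Deposited fold changes of other low members also lay nearer 0, such as 0.257 against 6.83 for Tnfrsf11b. The deposited size is therefore not compared with those here. The CD30 receptor gene Tnfrsf8 was itself low, from 1.8 to 51.7 normalized counts.

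The promoters of Tnfsf8 and Tnfrsf13b are shown because these genes had the smallest p in each direction. They come from the same windows, and the Tnfsf8 run again stops where the listed span of the gene begins.
Tnfsf8, chr4:63861348-63861534, minus strand: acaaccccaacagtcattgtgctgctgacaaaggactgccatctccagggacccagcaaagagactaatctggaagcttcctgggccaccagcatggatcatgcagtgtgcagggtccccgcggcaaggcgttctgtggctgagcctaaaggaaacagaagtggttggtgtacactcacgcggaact
Tnfrsf13b, chr11:61126505-61126754, plus strand: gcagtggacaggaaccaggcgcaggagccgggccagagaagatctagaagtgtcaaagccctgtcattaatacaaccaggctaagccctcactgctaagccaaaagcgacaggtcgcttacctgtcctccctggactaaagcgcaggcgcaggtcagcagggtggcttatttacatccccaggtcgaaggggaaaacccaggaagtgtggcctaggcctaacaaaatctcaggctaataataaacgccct
None of the 4 motifs searched is in either window, so both runs are wholly in lower case. That says only that these letters are not in this window.

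Markers of T cells went both ways, 8 of the 12 being positive and 4 negative between ages. Cd3e, a chain of the T cell receptor complex, had 16, 117.8 and 5.1 normalized counts in the younger group against 170.1, 345.8 and 177.6 in the older, also without overlap. Cd3g, another chain, had 85.6, 33.2 and 63.2, then 2.8, 53.4 and 9.1, and Cd5, of T cells and some B cells, 49.9, 192.6 and 193, then 78.2, 2 and 65.3, both lower on average with overlap. The 12 T cell markers summed to 2977.4 to 3592.3 at 8 weeks and 2331.9 to 3759.2 at 11 weeks, most of it Cd4, which mouse macrophages can also carry, and 2 of the 12 were higher without overlap. The 9 dendritic cell markers summed to 5474.7 to 7074.5 and then 4078.6 to 5220.8, and 4 of them were lower without overlap, as were 5.12% of all genes. The epithelial, fibroblast, neutrophil and pericyte sums given above were all higher at 11 weeks, as Tnfsf8 was. The part of these cells in the Tnfsf8 values was not tested.

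Tnfsf9, the ligand of CD137, is made by activated antigen-presenting cells. It had 419.1, 181.5 and 184.5 normalized counts at 8 weeks, then 561.8, 505.1 and 395.2 at 11 weeks. Only 8-week replicate 1 reached into the 11-week range. The log2 fold change was 1.0 ± 0.48 (interval -0.03 to 2.02; adjusted p = 0.637). The receptor gene Tnfrsf9 had 144.4, 133 and 204.1, then 287.8, 174.4 and 364.4, overlapping, with 0.74 ± 0.56 (adjusted p = 0.794). Tnfrsf9 overlaps Camta1 on the opposite strand, which had 192.5 to 484.6. Whether the counting used strand is not given, and without it the reads of such a pair cannot be told apart. Per kilobase, Tnfsf9 exceeded Tnfrsf9 in all 6 libraries, by 1.91 to 6.12 times.

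Tnfrsf4, the OX40 receptor of activated and regulatory T cells, had an 8-week mean that rested on 1 library. It had 58, 56.8 and 684.1 normalized counts at 8 weeks, compared with 23, 109.9 and 29.9 at 11 weeks. The log2 fold change of -1.61 ± 1.04 (interval -3.82 to 0.60; adjusted p = 0.751) became -0.43 without 8-week replicate 3. The T cell markers were mixed in that library. Of the 6 libraries it had the lowest Cd3e at 5.1 and Foxp3 at 13.7. Its Cd5, at 193, was level with the 192.6 of 8-week replicate 2, where Tnfrsf4 was 56.8. The part of T cells in the Tnfrsf4 value was not tested. The neighbour of Tnfrsf4, Tnfrsf18 (GITR), 9.6 kilobases away, was at 0 in 8-week replicate 3. It had 74 and 34.6 in the other 8-week libraries, then 86.4, 124 and 82.5. Tnfrsf18 did not overlap between ages, and its log2 fold change, which includes that 0, was 2.81 ± 1.39 (adjusted p = 0.646). Cd27 ran from 40.1 to 204.8 and overlaps Vamp1 on the opposite strand, which had 218.5 to 632.6. The ligands Tnfsf18 (0 to 58.9) and Tnfsf4 (9.4 in 1 library of 8 weeks and 0 in the others) were low.

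In these sorted cells, transcripts of the RANK receptor were abundant and those of its ligand few. Ligand made by cells outside the sort is not covered by these libraries. RANK signalling drives osteoclast formation and, in the mammary gland, epithelial growth under progesterone. Tnfrsf11a had 4789, 1859.2 and 5748.1 normalized counts in the younger group against 6904.4, 7279.4 and 2729.9 in the older, so that 1 library in each age was well below the others. Its coefficient of variation, 49.0% and 44.8%, was the widest of the 6 genes with the highest levels per kilobase. The log2 fold change was 0.47 ± 0.42 (interval -0.44 to 1.39; adjusted p = 0.811), and without 8-week replicate 2 it was -0.02. Tnfsf11 (RANK ligand) had 0 reads at 8 weeks and 0, 12.1 and 2.7 normalized counts at 11 weeks. Tnfrsf11b encodes osteoprotegerin, the soluble decoy of RANK ligand made by stromal and epithelial cells. It had 0 reads in all 8-week libraries and 28.5, 0 and 35.3 normalized counts at 11 weeks. The 11-week mean of 21.3 was 20.4 times a floor of 3 reads over the 8-week group. That is no bound on the difference between ages, since 1 of the 3 libraries was at 0 and the ages overlapped. The fitted log2 fold change of 3.35 ± 1.47 (interval 0.23 to 6.48; adjusted p = 0.600) depends on the added count and is no bound either. The 2 libraries with Tnfrsf11b reads were those with the highest epithelial marker sums, 51150.7 and 47351.2, and 11-week replicate 2, with none, had 26972.4. They also had the highest fibroblast sums, 2445 and 3466.6 against 1942.5, and endothelial sums, 1617.4 and 1703 against 1229.9. Mast cell and basophil sums were 735.6 and 827.4 against 191.5. The B cell, NK cell, plasma cell, dendritic cell and plasmacytoid dendritic cell sums were likewise above those of 11-week replicate 2. The pericyte sums went the other way, at 2042.2 and 1799.9 against 2933.5, as did the macrophage, T cell and neutrophil sums. The part of these cells in the Tnfrsf11b values was not tested.

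The TWEAK pair was expressed on both sides. Tnfsf12, the ligand, had 1438.2, 1216.4 and 1303.4 normalized counts at 8 weeks, then 990.3, 1114.9 and 1055 at 11 weeks, lower in all 11-week libraries. The means were 1319 ± 112 and 1053 ± 62.3 (SD, n = 3), and the log2 fold change was -0.32 ± 0.28 (SE; interval -0.92 to 0.28; adjusted p = 0.809). The coefficients of variation, 8.47% and 5.92%, were the lowest among the 6 highest genes at 8 and at 11 weeks. Tnfrsf12a (Fn14), the receptor, is known for induction by growth factors in injured tissue. It had 562.6, 746.7 and 712.3, then 669.4, 881.1 and 687.9, overlapping (0.15 ± 0.34; adjusted p = 0.921). Per kilobase, the ratio of Tnfrsf12a to Tnfsf12 was 0.307, 0.481 and 0.429 at 8 weeks and 0.53, 0.62 and 0.511 at 11 weeks. That ratio did not overlap between ages, and it was looked at after the values were seen and carries no test.

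Tnfsf12, Tnfsf13 and their read-through locus lie on chromosome 11 and overlap each other and the antisense gene Tnfsf13os. The read-through had 126.6, 290.9 and 29 normalized counts, then 145.3, 214.7 and 26.3, overlapping (-0.13 ± 0.97; adjusted p = 0.978). Tnfsf13os had 53.5, 101.1 and 55.5, then 283.2, 125 and 124.2. Reads shared by these genes cannot be told apart, so the values of Tnfsf12 and Tnfsf13 depend on how the counting assigned them. Tnfrsf19, a receptor of epithelial and neural cells, was the remaining member, at 0 to 51.5 normalized counts with 3 libraries at 0.

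Neighbouring members often had very different levels. Besides the Tnf locus, Tnfrsf1b lies 20.3 kilobases from Tnfrsf8 on chromosome 4, with mean levels of 3270 and 6.37 per kilobase. On chromosome 6, Ltbr and Tnfrsf1a are 35.5 kilobases apart, with Cd27 a further 69.6 kilobases beyond Ltbr, and the levels were 284, 770 and 41.5. On chromosome 17, Cd70 with no reads sits between Tnfsf9 at 290 and Tnfsf14 at 184, at 38.2 and 39.7 kilobases. Tnfsf8 at 35.7 lies 86.2 kilobases from Tnfsf15 at 2.49. The decoy receptor locus on chromosome 7 held genes at 27.1 to 76 per kilobase, with the uncertainty of similar copies given above.

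**Figure D4:**
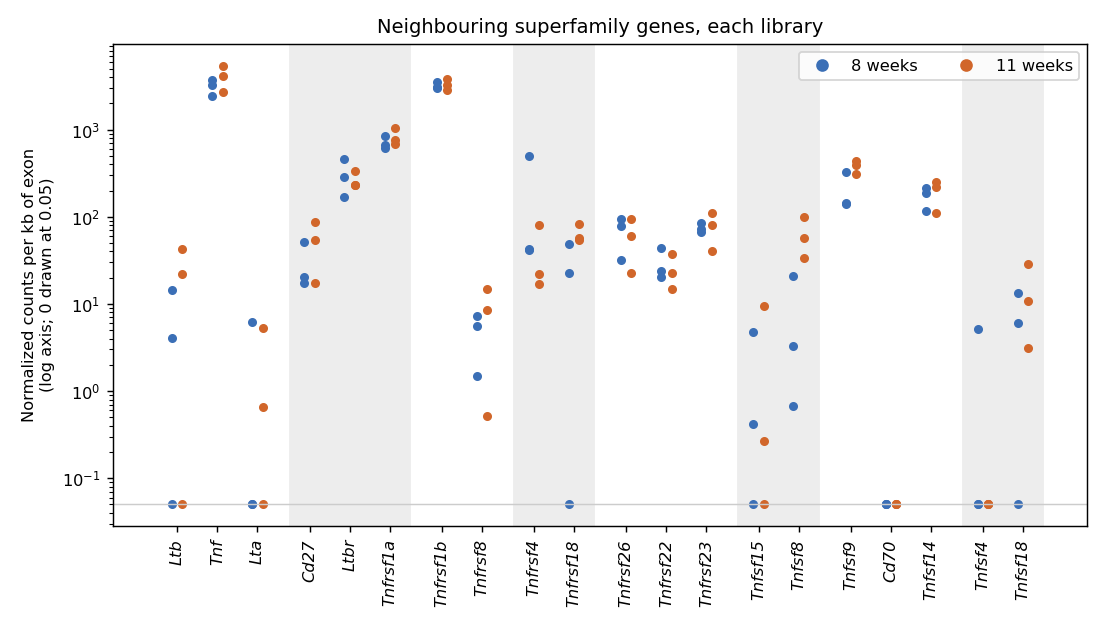
Normalized counts per kilobase of exon (log axis, 0 drawn at 0.05) for superfamily genes that lie within 100 kilobases of each other, grouped by locus with alternate shading, each dot 1 library (blue 8 weeks, orange 11 weeks). The chromosome 11 locus of Tnfsf12, Tnfsf13 and their read-through, also within that distance, is not drawn. Tnf lies far above Ltb and Lta, and Tnfrsf1b far above Tnfrsf8, in every library.

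The wider pathway was read from 8 lists with 110 distinct genes, and limma called none of them, beside the 0.0507% of all genes given above. Of 26 TNF-induced genes tested, 17 were positive and 9 negative with a median log2 fold change of 0.19, and 7 had an unadjusted p under 0.05 beside 8.03% of all genes. The smallest p belonged to Cxcl2, a neutrophil-attracting chemokine, with 39490.5, 31671.1 and 31367.6 normalized counts at 8 weeks, compared with 65204.1, 39434.3 and 66190.7 at 11 weeks (0.71 ± 0.18; adjusted p = 0.259); 1 library of each age met near the same value. Next came Ptgs2, the inducible cyclooxygenase, without overlap (0.84 ± 0.25; adjusted p = 0.329), and Ier3, an early response gene, also without overlap (0.68 ± 0.21; adjusted p = 0.372). The epithelial, fibroblast, neutrophil and pericyte sums were higher at 11 weeks as well, and their part in these values was not tested.

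Of the 11 genes that control TNF mRNA, 5 were positive and 6 negative with a median of -0.13. Zfp36l2, which binds AU-rich mRNA and hastens its decay, had 3040.5, 2779.1 and 3925.4 normalized counts in the younger group against 2147.9, 1987.9 and 1297 in the older, lower without overlap (-0.86 ± 0.27; adjusted p = 0.358). Mapkapk2, a kinase that stabilizes Tnf mRNA, was at 3437.1 to 4355.6 and then 5017.5 to 5390.9, higher without overlap (0.41 ± 0.20; adjusted p = 0.65). Zfp36, or tristetraprolin, was the most abundant of the list at 131369.1 to 146032.6 and then 150859.1 to 154410.4 (0.15 ± 0.10; adjusted p = 0.784).

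Of the 21 ubiquitin and kinase genes on the way to NF-kB, 8 were positive and 13 negative with a median of -0.12, and 4 were lower without overlap beside 5.12% of all genes. Cyld, a deubiquitinase that limits NF-kB, had 1812.7, 2291.4 and 3040.6 normalized counts, then 1320.4, 1594.8 and 1235.4 (-0.76 ± 0.28; adjusted p = 0.479). Otulin, which cleaves linear ubiquitin chains, had 0.69 ± 0.31 (adjusted p = 0.607) and Tnip3, a partner of the NF-kB inhibitor A20, -0.52 ± 0.27 (adjusted p = 0.658). Of the 15 cell death genes, 9 were positive and 6 negative with a median of 0.21. Xiap, an inhibitor of caspases, was at 4095.2 to 5280 and then 1617.8 to 3558.4, lower without overlap (-0.77 ± 0.28; adjusted p = 0.481). Cflar, which blocks caspase-8 activation, had 0.32 ± 0.18 (adjusted p = 0.702) and Diablo, which relieves caspase inhibition, -0.72 ± 0.42 (adjusted p = 0.717).

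The 13 TRAF and death domain adaptors split into 6 positive and 7 negative with a median of -0.10. Traf3ip2 was higher without overlap at low values of 5.1 to 31.2 and then 66.5 to 125 (2.39 ± 1.05; adjusted p = 0.600), Traf4 had 2.57 ± 1.17 (adjusted p = 0.609) and Traf3 0.84 ± 0.44 (adjusted p = 0.661). Of 9 genes for shedding, which frees ligands and receptors from the membrane, 6 were positive with a median of 0.08. Timp3, an inhibitor of the TNF-releasing protease made mostly by stromal cells, had 66.9, 0 and 202.4 normalized counts, then 347.6, 264.1 and 304.5 (3.67 ± 1.40; adjusted p = 0.499). The fibroblast, epithelial, neutrophil and pericyte sums given above were also higher at 11 weeks, and their part in the Timp3 values was not tested. The protease itself, Adam17, ran from 7518.6 to 11933.6 and from 6945.8 to 10898.4. Rhbdf1 had 0.86 ± 0.71 (adjusted p = 0.802) and Adam10 -0.16 ± 0.20 (adjusted p = 0.839).

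Of 9 osteoclast genes downstream of RANK that were tested, 4 were positive and 5 negative with a median of -0.03, and Oscar was at 0 throughout. Itgb3, an integrin chain of osteoclasts, had 2.07 ± 0.86 (adjusted p = 0.563), Acp5, the tartrate-resistant phosphatase, 0.59 ± 0.26 (adjusted p = 0.601), and Mitf 0.45 ± 0.27 (adjusted p = 0.721). Of the 6 tested superfamily genes with other symbols, 4 were positive with a median of 0.35. Cd40, the receptor through which helper T cells activate macrophages, had 995.1, 423.9 and 862.6 normalized counts, then 692.4, 1119 and 1209.1, overlapping (0.45 ± 0.39; adjusted p = 0.805). The 3 with the smallest p were Eda (2.85 ± 1.5; adjusted p = 0.667), Ngfr (-2.30 ± 1.85; adjusted p = 0.802) and Relt (-0.66 ± 0.56; adjusted p = 0.804), of which Relt averaged 225 normalized counts and the others under 30.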

How the data were processed

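RNA of sorted mammary macrophages was sequenced in 6 libraries, prepared, per the labels, with kits for small amounts of RNA. GRCm38, STAR 2.4 and DESeq2 1.6 appear in the submitters' processing notes without a stated role. Not given in the sources used here are the counter, its use of strand and the annotation release. Each library has 1 deposited signal value per gene. These are gene counts over 1 size factor per library: whole reads came back within 0.05 normalized counts for at least 99.848% of nonzero values, and DESeq2 size factors equalled the deposited scaling within 4.86e-05%. The deposited table also carries the authors' result for age (log2 fold change, fold as a ratio, p-value before and after adjustment), quoted only where named.

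The test was limma with trend and robust moderation on log2(normalized count + 1), age as the only term, over genes averaging at least 1 normalized count at either age, with Benjamini-Hochberg adjustment over all of them. Fold changes are on that scale, which understates change in low genes, while a library near 0 can widen it. edgeR's quasi-likelihood test, DESeq2 and limma-voom ran on the recovered reads. Other alternatives were scaling (TMM, upper quartile, library total), filters, pseudocounts, a replicate block and leaving out each library, 18 in all. On simulated data for 11 against 8 weeks (21675 genes, 200 changed), limma found 12% of 2-fold and 44% of 4-fold changes, with 6.7% of 60 calls being unchanged genes. In the same data edgeR found 14% and 47%, with 6.2% of 65. The changed genes were drawn only from those above a set mean. The shares found therefore do not cover the lowest members, among them Tnfrsf11b, Tnfsf15 and Lta.

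Lengths are exon unions from GENCODE M21 (GRCm38), found for all 39 members. Promoters are RefSeq's (GRCm38.p6), found for 30. A superfamily gene and a marker gene are not reported here. Gene lists held 225 entries, all found, 2 by gene ID. No libraries held identical values. The members and lists were chosen with earlier results of these data known. Members averaging at least 100 normalized counts, or with an unadjusted p under 0.05, are given in every library, the others by range; members chosen outside this rule, such as those without overlap, were picked after their values were seen, as were the ratios per kilobase. Each pathway list gives its 3 smallest p, and Cd40, Adam17, Oscar and the single markers were added after the values were seen. Fits used limma 3.58.1, DESeq2 1.42.0 and edgeR 4.0.16 in R 4.3.3. Tables and plots used numpy 2.4.6, matplotlib 3.10.9 and pandas 2.3.3 in Python 3.11.15.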

Additional observations from a re-analysis of the deposited data

How the results depend on the processing

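No member was called under any of the 18 alternatives. Pathway genes, with 0 calls as reported, had 1 call with DESeq2, Mmp9, which was lower at 11 weeks (-0.96). They had 1 call with the replicate block, Cxcl1, which was higher (1.23). Without 11-week replicate 2 the 1 call was Cxcl2, also higher (0.95). On leaving out each library there were 0 to 1 such calls. Calls over all genes, 11 as reported, were 418 with DESeq2, 26 with limma-voom, 45 with the replicate block, 4 with library total scaling, 5 with a pseudocount of 8, and 3 (without 8-week replicate 1) to 16 (without 11-week replicate 2) on leaving out each library; it was 4 without 11-week replicate 1. The cause of these differences was not tested. The replicate numbers did not pair the libraries: deviations of same-numbered libraries correlated at -0.029, -0.003 and -0.023. With a mean of at least 100 required, 13 members were positive instead of 25, since fewer were tested (25).

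Of the 24 members that averaged at least 100 normalized counts or had an unadjusted p under 0.05, 12 changed sign under some alternative, none of them with a log2 fold change beyond 0.47 in size. Among those 24, the direction held in every alternative for others that included Tnf, Tnfrsf13b, Tnfsf8, Tnfsf9 and Tnfsf12. For Tnfsf8 and Tnfsf12, whose ages did not overlap, leaving out a library could not change the sign. Tnfrsf1b was -0.05 with library total scaling, and Tnfrsf23 was 0.04 with DESeq2 and 0.03 with edgeR. Tnfsf10 was 0.34 with DESeq2, 0.33 with edgeR, 0.09 with limma-voom, 0.0038 with a pseudocount of 8 and 0.04 with upper-quartile scaling. The read-through locus was 0.005 with limma-voom. On leaving out each library, Fas ran from -0.32 to 0.66, Ltbr from -0.46 to 0.25, Tnfrsf11a from -0.02 to 0.93, Tnfrsf1b from -0.07 to 0.14, Tnfrsf22 from -0.59 to 0.08, Tnfrsf23 from -0.39 to 0.34 and Tnfrsf25 from -0.54 to 0.64. Tnfrsf26 ran from -0.76 to 0.29, Tnfsf10 from -0.84 to 0.45, the read-through locus from -1.02 to 0.78, Tnfsf13b from -0.83 to 0.21 and Tnfsf14 from -0.12 to 0.49. Depth limits the low members: 3 reads are worth 2.56 to 4.16 normalized counts in a library.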
